A study of Homo sapiens with 14 samples.

Results

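Genes that mark the stage of a developing T cell were followed across all 5 groups of a Jurkat experiment. They are the V(D)J recombination genes *RAG1*, *RAG2* and *DNTT*, the costimulatory receptor genes *CD28* and *CD27*, and the surface glycoprotein genes *CD2*, *CD4*, *CD5*, *CD6* and *CD7*. The set was given as symbols and matched to Ensembl identifiers. All 10 were found among the 61541 genes of the table, and all 10 were among the 18963 genes that passed the low-count filter and were tested.

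The study asked what chemical or genetic interference with KSR2, which holds RAF, MEK and ERK kinases together, does to Jurkat cells. Jurkat is an established human line of T-cell acute lymphoblastic leukaemia. Polyadenylated RNA was sequenced from cells given the solvent DMSO (n = 3) or the KSR inhibitor APS-2-79 (KSRi, n = 3). It was also sequenced from cells with a non-targeting guide (NT, n = 2), *KSR2* guide 1 (n = 3) or *KSR2* guide 2 (n = 3). A guide RNA directs a Cas protein to a chosen gene. The labels call these libraries CRISPR knockouts, whereas the design text has CRISPRi and the NT library names have shRNA. The preparation text, which is the same for all 14 libraries, describes a transduced line and does not say what the DMSO and KSRi cells carried. The sources used here do not state dose, treatment time, clonality or whether replicates were separate cultures. The p-values therefore reflect the spread among libraries alone, and that spread may be technical.

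V(D)J recombination assembles the variable parts of antigen receptor genes in immature lymphocytes. RAG1 and RAG2 form the recombinase that cuts at recombination signals, and terminal transferase, the product of *DNTT*, adds bases to the cut ends before they are joined. Both RAG genes are active in early thymocytes and are shut down after a working receptor has been made. CD7, CD2 and CD5 appear early in the T lineage, CD4 is a coreceptor for MHC class II, and CD28 and CD27 deliver costimulatory signals.

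Library totals ran from 21710466 to 45897075 counts. The targeted gene *KSR2* stood at 0.453 to 0.822 CPM (counts per 1000000, on TMM-scaled library sizes) in the 6 guide libraries and at 29 to 30.1 CPM in NT. It was at 33.5 to 39.3 CPM in the DMSO and KSRi libraries. All 10 T-cell markers examined, such as the CD3 chains and *LCK*, were at 1 CPM or more in every group, with a summed level of 2340 to 3270 CPM. Myeloid markers summed to 0.391 to 0.879 CPM, with *CSF1R* and *ELANE* at 0 in every group. The B-cell list summed to 40.6 to 97.4 CPM, from *CD79A*, *BLK* and *EBF1*, while *MS4A1*, *CD22*, *CD79B* and *PAX5* were each under 1 CPM. The chi-square per degree of freedom between replicates was 17.24 to 49.94 for the KSRi pairs and 5.829 to 26 for pairs of the other groups, ranges that overlap. In bulk RNA, fewer cells with a transcript and less of it per cell cannot be told apart.

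**Figure D1:**
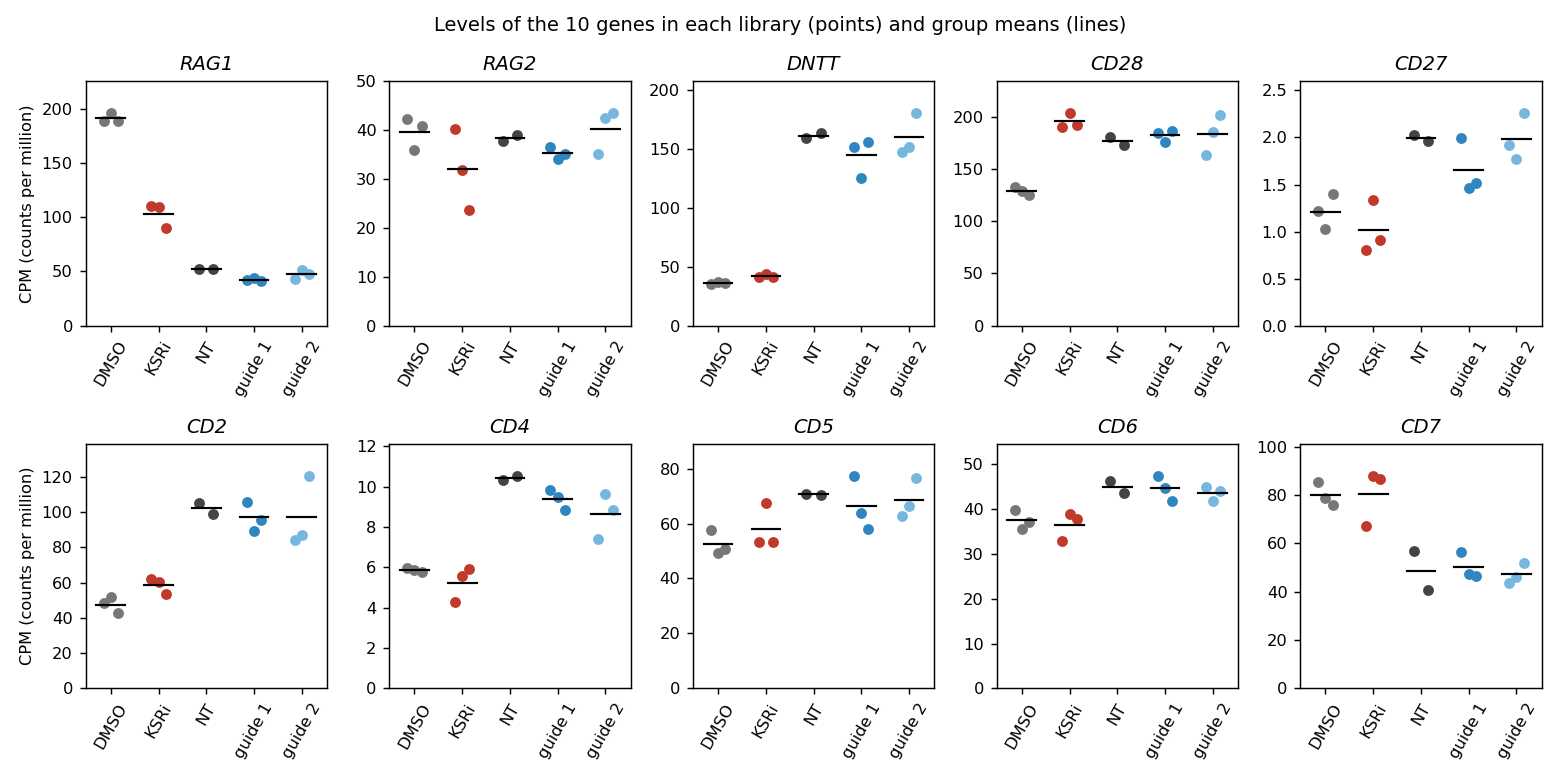
Level of each of the 10 genes in CPM (vertical axes, each starting at 0) in the 14 libraries, by group. Points are libraries and lines are group means. *RAG1* falls in steps from DMSO (189 to 196 CPM) through KSRi to the 3 guide-bearing groups, while *DNTT* and *CD2* are higher in those groups than in DMSO and KSRi.

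The promoters of 4 members are shown because their transcripts give the main results below: the adjacent genes *RAG1* and *RAG2*, which differed in behaviour, *CD28*, which rose with the inhibitor, and *DNTT*, with the largest difference among the 10 members between the 2 control groups. Each sequence is from RefSeq (GRCh38.p14), runs 5′ to 3′ on the strand of the gene and holds 250 bases before and 50 bases after the annotated start site. Of the 10 members 6 had an entry. Capitals mark matches to an E box (CANNTG, bound by basic helix-loop-helix factors such as TCF3 and TAL1) or a GATA motif (AGATAA or TGATAA), on either strand.
RAG1 promoter (chr11:36510103-36510402, plus strand): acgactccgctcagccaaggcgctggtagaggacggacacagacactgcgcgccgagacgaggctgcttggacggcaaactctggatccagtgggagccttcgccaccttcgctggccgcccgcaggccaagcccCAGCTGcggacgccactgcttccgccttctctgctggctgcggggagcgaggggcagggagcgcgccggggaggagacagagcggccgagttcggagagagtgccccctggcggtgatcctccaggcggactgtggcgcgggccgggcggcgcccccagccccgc
RAG2 promoter (chr11:36598187-36598486, minus strand): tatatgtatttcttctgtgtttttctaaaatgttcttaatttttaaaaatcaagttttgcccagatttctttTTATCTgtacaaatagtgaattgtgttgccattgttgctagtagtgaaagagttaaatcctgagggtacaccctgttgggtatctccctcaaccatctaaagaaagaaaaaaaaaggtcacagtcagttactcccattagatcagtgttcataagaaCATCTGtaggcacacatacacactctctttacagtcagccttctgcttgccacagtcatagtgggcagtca
DNTT promoter (chr10:96304184-96304483, plus strand): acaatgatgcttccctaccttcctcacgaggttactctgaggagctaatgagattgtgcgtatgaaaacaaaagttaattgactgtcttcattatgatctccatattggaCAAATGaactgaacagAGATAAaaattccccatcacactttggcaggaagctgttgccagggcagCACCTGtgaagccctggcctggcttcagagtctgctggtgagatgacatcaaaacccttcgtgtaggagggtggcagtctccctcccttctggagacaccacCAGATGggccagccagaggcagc
CD28 promoter (chr2:203706389-203706688, plus strand): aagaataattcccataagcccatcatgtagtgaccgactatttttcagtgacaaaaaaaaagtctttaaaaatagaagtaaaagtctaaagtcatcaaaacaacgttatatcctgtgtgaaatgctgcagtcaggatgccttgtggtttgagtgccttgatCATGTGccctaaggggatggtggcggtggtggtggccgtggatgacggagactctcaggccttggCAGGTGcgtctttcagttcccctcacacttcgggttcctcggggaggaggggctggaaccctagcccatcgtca
The *RAG1* window was 72.3% G and C and the *RAG2* window 36.7%, against a median of 58.7% over all promoters in the RefSeq table. The *RAG1* window ends at base 36510402, before the *RAG1* gene of the GENCODE annotation begins at 36510709. For *CD27* the window ends at 6443941 and the GENCODE gene begins at 6444867. Whether the *RAG1* and *CD27* transcripts counted here start in these windows was not tested, so their sequence features may not describe the promoters in use. An E box was present in all 6 windows, from 1 each for *RAG1* and *RAG2* to 3 for *DNTT*, and 68.7% of all 35116 promoters hold 1 or more. A GATA motif was found for *DNTT*, starting at base -124 from the start site, and for *RAG2*, at base -178, and is present in 16.3% of all promoters. No match was found in the 6 windows to an ETS motif (CCGGAA), a FOXO motif (TGTTTAC), a TCF/LEF motif (CTTTGA) or an RBPJ motif (CGTGGGAA), which 17.2%, 3.42%, 12.9% and 0.826% of all promoters hold. Letters of a motif in such a window describe the sequence and do not show that a factor is bound.

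The comparison of KSRi with DMSO asked how the inhibitor moved these genes. *RAG1* fell, *CD28* rose, and *CD2* rose by a smaller amount that sat at the threshold. The other 7 members did not pass the test. By the edgeR quasi-likelihood test at an adjusted p under 0.05, 2 members were higher and 1 lower, 3 of 10 in all, where 40.7% of all tested genes were called (22% higher and 18.7% lower). The median log2 change of the 10 was -0.01, beside 0.02 over all tested genes.

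*RAG1* (ENSG00000166349; chromosome 11, 36510709 to 36593156, plus strand), which encodes the catalytic part of the recombinase, stood at 189, 196 and 189 CPM in the DMSO libraries. In the KSRi libraries it stood at 110.0, 109 and 90.1 CPM. All 3 KSRi libraries lay below all 3 DMSO libraries, with a gap between the groups wider than the spread within either. *RAG1* thus fell 1.86-fold, by 0.89 on the log2 scale (SE 0.08; edgeR adjusted p = 2.46e-07). Leaving out any library of the series left this change between -0.94 and -0.81.

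*RAG2* (ENSG00000175097; chromosome 11, 36575574 to 36598279, minus strand) encodes the partner subunit, which binds modified histone H3. It stood at 42.2, 36.0 and 40.7 CPM in DMSO and at 40.3, 31.9 and 23.7 CPM in KSRi. The groups overlapped: KSRi replicate 1 was at the DMSO level and replicate 3, the library with the smallest total, was the lowest of all 14. On the log2 scale the difference was -0.30 (SE 0.135; edgeR adjusted p = 0.0851). Without KSRi replicate 1 it was -0.49 (edgeR adjusted p = 0.00128), and without a low-count filter -0.31 (adjusted p = 0.00677), so the call depends on that library and on the filter. Without KSRi replicate 3 the difference was -0.14 (edgeR adjusted p = 0.349).

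The RAG genes lie on opposite strands and overlap. In the GENCODE 29 annotation they share 588 exonic bases, which is 7.52% of the exonic length of *RAG1* and 16.8% of that of *RAG2*. The sources used here do not state whether counting used strand, so how reads from the shared stretch were assigned is unknown. The ratio of *RAG1* to *RAG2* CPM within a library, examined after the values were seen, was 4.48, 5.46 and 4.64 in DMSO and 2.73, 3.42 and 3.80 in KSRi. It was 1.38 and 1.34 in NT and between 1.10 and 1.29 in the 6 guide libraries. *RAG1* thus varied across the groups far more than its neighbour.

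**Figure D2:**
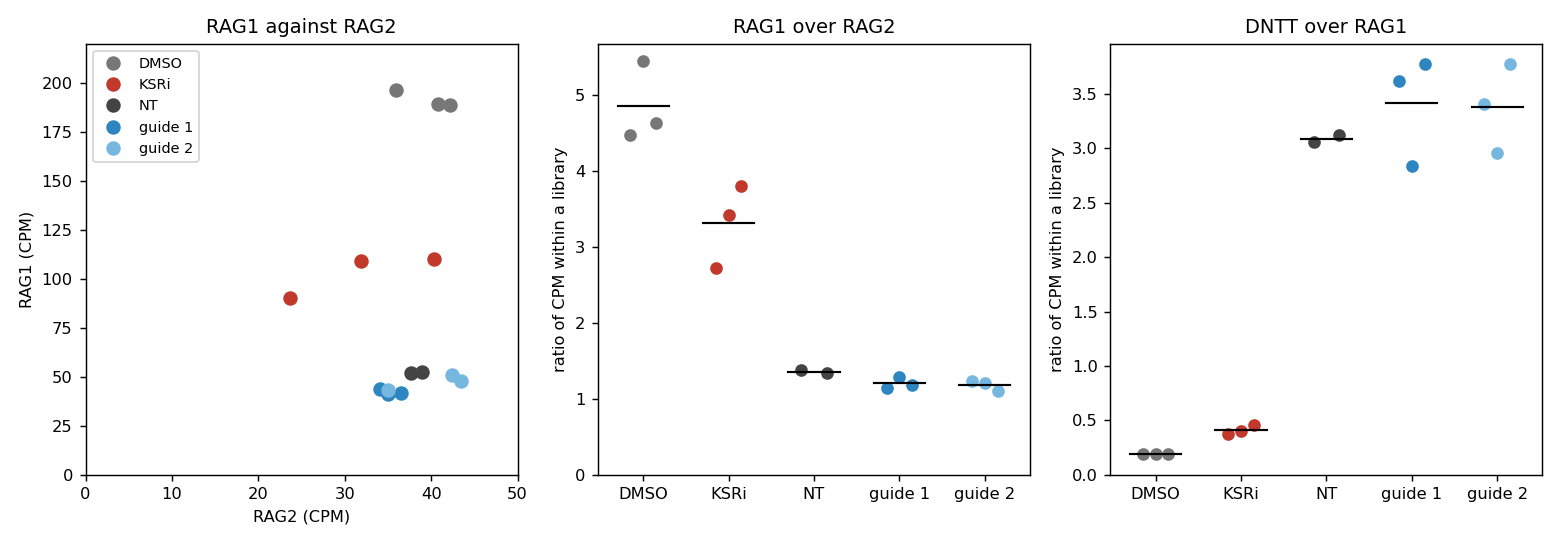
Left, *RAG1* against *RAG2* in CPM, 1 point per library. Middle and right, ratios of CPM within each library by group, with lines at group means: *RAG1* over *RAG2* runs from 5.46 in a DMSO library to 1.10 in a guide 2 library, and *DNTT* over *RAG1* from 0.189 in a DMSO library to 3.78 in guide libraries.

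*DNTT* (ENSG00000107447; chromosome 10, 96304396 to 96338564, plus strand), the terminal transferase gene, stood at 35.7, 37.4 and 36.5 CPM in DMSO. With the inhibitor it stood at 41.6, 43.5 and 41.2 CPM. The groups did not overlap, which held for 4 of the 10 members (*RAG1*, *DNTT*, *CD28* and *CD2*) and for 46.9% of all tested genes. The log2 change of 0.20 (SE 0.09, 95% interval 0.01 to 0.39) did not pass after adjustment (edgeR adjusted p = 0.0798).

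*CD28* (ENSG00000178562; chromosome 2, 203706475 to 203738912), whose product binds CD80 and CD86 on antigen-presenting cells, was at 133, 129 and 125 CPM in DMSO. It reached 191, 204 and 192 CPM in KSRi, above every DMSO library. *CD28* rose 1.52-fold (0.60 on the log2 scale with an SE of 0.07; edgeR adjusted p = 6.9e-06), and leaving out any library left it between 0.57 and 0.62. *CD27* (ENSG00000139193; chromosome 12, 6444867 to 6451718), a TNF receptor family member that binds CD70, was scarce, with 17 to 103 counts per library. It stood at 1.21, 1.03 and 1.40 CPM in DMSO and 0.806, 1.34 and 0.914 CPM in KSRi, with overlap and a log2 change of -0.21 (SE 0.23, edgeR adjusted p = 0.483). In the annotation 37% of its exonic bases lie opposite exons of *CD27-AS1*, which went from 8.74 to 15 CPM with the inhibitor (log2 change 0.77, SE 0.11, edgeR adjusted p = 5.05e-05). Reads from the exonic stretch that this pair shares cannot be assigned without knowing the strand setting.

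*CD2* (ENSG00000116824; chromosome 1, 116754385 to 116769228), an adhesion receptor for CD58, was at 48.3, 51.6 and 42.7 CPM in DMSO and at 61.9, 60.6 and 53.5 CPM in KSRi. The groups did not overlap, but the closest libraries were near each other. On the log2 scale the rise was 0.31 (SE 0.12; edgeR adjusted p = 0.0483). This call was lost with RLE factors, with DESeq2 and with a stricter filter (adjusted p = 0.0615, 0.0604 and 0.0577). It was also lost without DMSO replicate 1 or 3, KSRi replicate 1 or 2, NT replicate 1 or 2, or guide 1 replicate 2 or 3, with an adjusted p of up to 0.193.

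The scavenger receptor cysteine-rich pair *CD5* and *CD6*, neighbours on chromosome 11, overlapped between the groups. CD5 dampens signals of the antigen receptor, and CD6 binds the adhesion molecule ALCAM. *CD5* (ENSG00000110448; 61102395 to 61127852) stood at 57.8, 49.2 and 50.9 CPM in DMSO and 53.2, 67.4 and 53.3 CPM in KSRi, with a log2 change of 0.14 (SE 0.11, edgeR adjusted p = 0.331). *CD6* (ENSG00000013725; 60971680 to 61020377) stood at 39.8, 35.5 and 37.2 CPM and 33.0, 38.8 and 37.7 CPM, a log2 change of -0.04 with a 95% interval from -0.21 to 0.13. KSRi replicate 1 was the lowest of the 14 libraries for *CD6*, and the other two lay within the DMSO range.

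*CD4* (ENSG00000010610; chromosome 12, 6786858 to 6820808) was low in these cells, at 5.95, 5.89 and 5.77 CPM in DMSO and 4.26, 5.57 and 5.91 CPM in KSRi. The fitted difference was -0.17 on the log2 scale (SE 0.13; edgeR adjusted p = 0.303), and KSRi replicate 1 again stood lowest. *CD7* (ENSG00000173762; chromosome 17, 82314868 to 82317602, minus strand), a receptor of early T cells, stood at 85.3, 78.6 and 76 CPM in DMSO and 67.3, 88.1 and 86.5 CPM in KSRi. Its KSRi libraries lay on both sides of the DMSO libraries, and the 95% interval of the log2 change was -0.25 to 0.27.

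**Figure D3:**
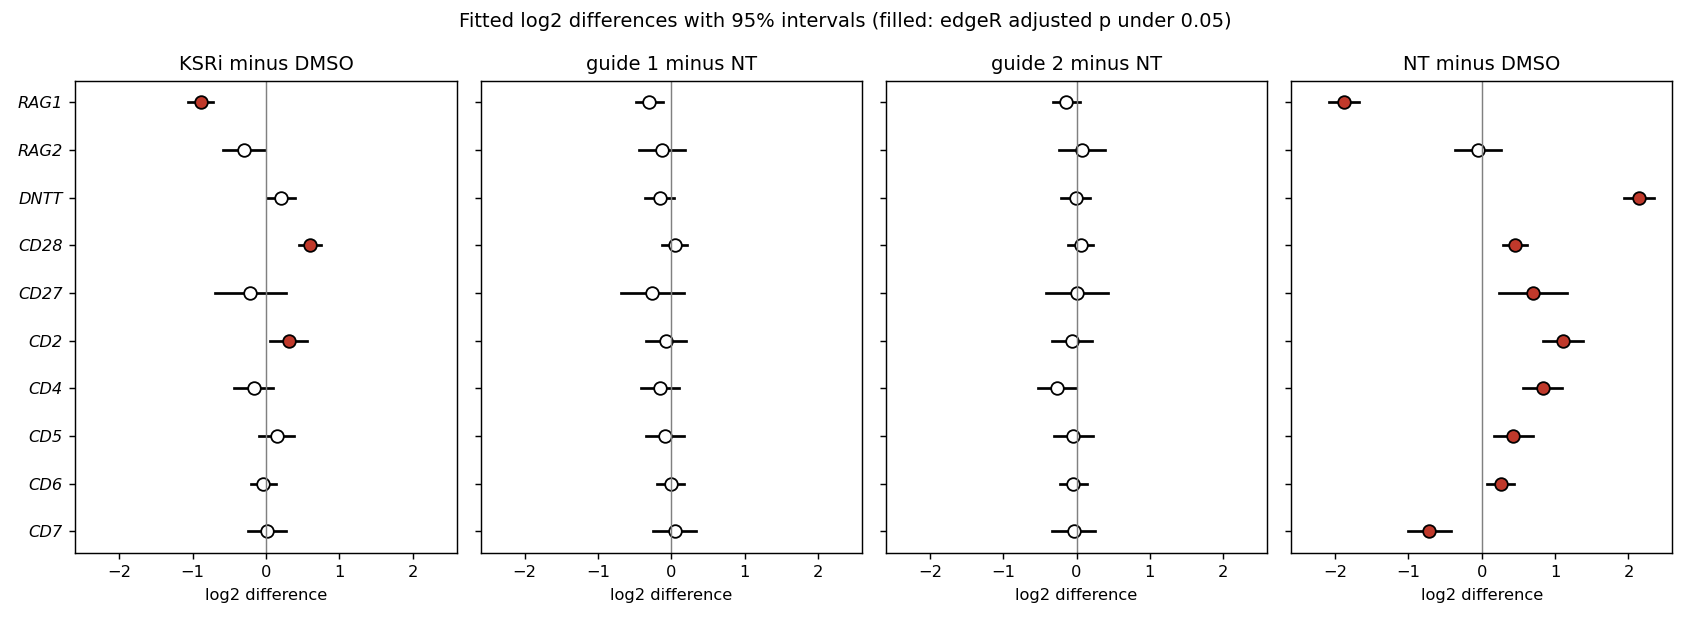
Fitted log2 differences of the 10 genes with 95% intervals for 4 comparisons; filled points passed the edgeR test at an adjusted p under 0.05. With the inhibitor 3 of 10 points are filled, with either guide 0, and between the control groups NT and DMSO 9.

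The comparisons of the guides with NT asked whether loss of the *KSR2* transcript moved the same genes. By edgeR 0 of 10 members passed with guide 1, with guide 2 or with the mean of both. Of all tested genes 0.00527%, 0.0105% and 0.0158% were called in these 3 comparisons. At an unadjusted p under 0.05 there was 1 member in each, against 4.64%, 3.60% and 4.16% of all tested genes. DESeq2, limma-voom and edgeR without a low-count filter also called 0 members. For the mean of both guides the 10 fitted log2 changes ran from -0.22 to 0.05, with 95% intervals reaching from -0.51 to 0.26 at the extremes.

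*RAG1* had the lowest value of these. It stood at 52.0 and 52.3 CPM in NT, at 41.9, 44.1 and 41.25 CPM with guide 1 and at 43.3, 51.1 and 47.7 CPM with guide 2. All 6 guide libraries were below both NT libraries, although guide 2 replicate 2 came close. The log2 change over both guides was -0.22 (SE 0.08, 95% interval -0.39 to -0.05), with an edgeR adjusted p of 0.989 over all genes and an unadjusted p of 0.0139. Groups that did not overlap were found for 2 of the 10 members in this comparison, *RAG1* and *CD4*, and for 9.56% of all tested genes. With guide 1 alone they were found for 4 (also *RAG2* and *DNTT*) where 27.1% of all genes had them, and with guide 2 alone for 2 where 21.1% had them. *CD4* stood at 10.3 and 10.6 CPM in NT, 9.86, 9.48 and 8.84 CPM with guide 1 and 7.40, 9.62 and 8.85 CPM with guide 2 (log2 change -0.21, SE 0.11, edgeR adjusted p = 0.989).

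For *CD28* and *CD2*, which were higher with the inhibitor, the guide libraries lay on both sides of NT. *CD28* stood at 180.4 and 173 CPM in NT, 185, 176 and 186 CPM with guide 1 and 164, 185 and 202 CPM with guide 2. Its log2 change over both guides was 0.05, with a 95% interval of -0.10 to 0.20, which does not reach the 0.60 seen with the inhibitor. *CD2* stood at 105 and 99.3 CPM in NT, 106, 89.5 and 95.8 CPM with guide 1 and 84.4, 87.1 and 121 CPM with guide 2, where replicate 3 stood above the rest. *DNTT* was at 159 and 163 CPM in NT, 152, 125 and 156 CPM with guide 1 and 148, 151 and 180.5 CPM with guide 2 (log2 change over both -0.09, SE 0.08).

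The remaining members overlapped between NT and the guides. *RAG2* was at 37.7 and 39.0 CPM in NT and between 34.1 and 43.5 CPM with the guides. *CD5* was at 70.9 and 70.4 CPM against 58.1 to 77.5 CPM, and *CD6* at 46.3 and 43.5 CPM against 41.7 to 47.5 CPM. *CD27* was at 2.03 and 1.96 CPM against 1.46 to 2.26 CPM. The 2 NT libraries differed most for *CD7*, at 56.8 and 40.7 CPM, and the guide libraries lay between them (43.6 to 56.5 CPM). Between guide 2 and guide 1, 0 of 10 members passed by edgeR and 0 had an unadjusted p under 0.05. Of all tested genes 0.00527% were called in that comparison and 10.2% had groups that did not overlap, against 0 of 10 members, and DESeq2 and limma-voom called 0 members as well.

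Whether the inhibitor effect differed from the guide effect was tested as a contrast of the 2 differences, which share no control library. *RAG1* fell further with the inhibitor, by 0.67 on the log2 scale (SE 0.11, edgeR adjusted p = 0.000371). *CD28* rose further, by 0.55 (SE 0.10, edgeR adjusted p = 0.000776). These were the 2 of 10 members that differed, where 28.6% of all tested genes did. *CD2* (0.38, SE 0.17) and *DNTT* (0.29, SE 0.12) had adjusted p values of 0.0972 and 0.0899 and passed when guide 2 replicate 3 was left out.

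The 2 control groups differed from each other at more of these genes than any treatment did from its control. NT against DMSO, which differ in guide and solvent and perhaps in culture or preparation, gave calls for 9 of 10 members by edgeR. Of these, 7 were higher and 2 lower in NT, where 65.8% of all tested genes were called (34.6% higher and 31.2% lower). The libraries of NT and DMSO did not overlap for the same 9 members, against 79.3% of all tested genes. The causes of this difference cannot be told apart in this design, and the solvent pair and the guide groups started from different levels.

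*DNTT* was 4.41-fold higher in NT than in DMSO (log2 difference 2.14, SE 0.10, edgeR adjusted p = 1.31e-11). *RAG1* was 3.67-fold lower (-1.88, SE 0.09, adjusted p = 4.28e-11), so the recombination genes differed in opposite directions. *CD2* was 2.15-fold, *CD4* 1.78-fold, *CD27* 1.62-fold, *CD28* 1.37-fold, *CD5* 1.34-fold and *CD6* 1.2-fold higher, and *CD7* was 1.64-fold lower. *RAG2* was level, at 38.3 CPM in NT and 39.6 CPM in DMSO (log2 difference -0.05, 95% interval -0.36 to 0.27), and the sign of this value changed with the scaling. With upper-quartile factors the median of all genes in this comparison moved by 0.22 and the split of calls went from 6568 higher and 5909 lower to 8283 and 4187. The same numbers of members were then called, 7 higher and 2 lower.

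KSRi and NT were both compared with the same DMSO libraries, so their changes are given only side by side. *RAG1* was lower in each (log2 differences -0.89 and -1.88) and *CD28* (0.60 and 0.45) and *CD2* (0.31 and 1.11) were higher in each. *CD7* was at 0.01 with the inhibitor and -0.72 in NT, and *CD4* at -0.17 and 0.83.

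Ordered by group mean, the members showed several patterns. Libraries of NT and DMSO did not overlap for 79.3% of all tested genes, so a gap between these groups sets no member apart. *RAG1* ran from guide 1 (42.4 ± 1.47 CPM, SD, n = 3) and guide 2 (47.4 ± 3.92, n = 3) to NT (52.2 ± 0.246, n = 2), KSRi (103 ± 11.3, n = 3) and DMSO (192 ± 4.29, n = 3), and only guide 1 and guide 2 overlapped among neighbours in this order. *DNTT* went from DMSO (36.5 ± 0.877) to KSRi (42.1 ± 1.21) and then to guide 1 (144 ± 16.7), guide 2 (159.8 ± 18) and NT (161 ± 3.02), with overlap from guide 1 to guide 2 and from guide 2 to NT. *CD2* had the same order of groups, from 47.5 ± 4.49 CPM in DMSO to 102 ± 4.12 in NT. *CD28* had DMSO alone at the bottom (129 ± 4.24) and NT, guide 1, guide 2 and KSRi (196 ± 7.14) following with overlap between neighbours. For *CD7* the guide-bearing groups were together at 47.2 to 50.2 CPM and DMSO and KSRi together at 80.0 and 80.6 CPM. *CD4*, *CD6* and *CD27* each had KSRi and DMSO at the bottom, overlapping, and a gap between DMSO and the guide-bearing groups. Above that gap the only neighbours in order that failed to overlap were guide 1 and NT for *CD4* (9.39 ± 0.516 and 10.4 ± 0.169 CPM). Guide 2 and NT, not neighbours in that order, did not overlap for *CD4* either. *RAG2* had KSRi lowest (31.96 ± 8.29) and guide 2 highest (40.3 ± 4.62), with a gap only between guide 1 and NT among neighbours. *CD5* groups overlapped at every step from DMSO (52.6 ± 4.53) to NT (70.7 ± 0.345).

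Between genes, levels can be set side by side only per length, here as CPM per kilobase of all annotated exons, which understates genes with long minor isoforms. In DMSO *CD7* (29.2), *CD2* (28.3), *CD28* (26.4) and *RAG1* (24.5) were highest on this scale. *DNTT* (18.5), *CD5* (16.3), *RAG2* (11.3) and *CD6* (6.29) followed, and *CD4* (1.28) and *CD27* (0.86) were lowest. In NT *DNTT* (81.7) and *CD2* (60.9) led, *RAG1* stood at 6.67, below *RAG2* at 10.9, and *CD4* (2.28) and *CD27* (1.41) were again lowest.

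Genes whose log2 CPM followed a member most closely over the 14 libraries were looked up as a description, since the 14 points share the large gap between the DMSO and KSRi libraries and the guide-bearing ones. For *RAG1* they were *ANKRD17* (Pearson r = 0.996) and *PSMD12* (0.995), and for *DNTT* *RNF182* and *IL17RD* (both 0.996). With group means removed these values were 0.688, 0.625, 0.692 and 0.486. *CD28* was most like *NEDD9* (0.971) and *PAQR8* (0.969), *CD2* like *BAZ1A-AS1* (0.980) and *KLHL5* (0.978), and *CD7* like *SCAMP3* (0.980) and *MDH2* (0.978). *RAG2* was most like *WAC* (0.907) and *EIF2S2* (0.890), and with group means removed these values were 0.922 and 0.917. For the matches of *CD28*, *CD2* and *CD7* they were then 0.771 and 0.572, 0.797 and 0.741, and 0.891 and 0.932. For *CD4* the closest were *PRR11* and *ZNF606*, for *CD5* *ERGIC1* and *ZFP36L1*, for *CD6* *PROSER2* and *PBX2*, and for *CD27* *H1-2* and *SERP1*, with r from 0.927 to 0.969. With group means removed these 8 values ran from 0.679 to 0.923.

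Transcription factors that act in early T cells moved both ways with the inhibitor. Of 26 tested 8 rose and 5 fell by edgeR (median log2 change 0.14), where 22% of all tested genes rose and 18.7% fell (median 0.02). *NR4A1*, an immediate early receptor gene, fell 1.74-fold (8.86 to 5.04 CPM, edgeR adjusted p = 7.79e-06). *ID2*, an inhibitor of E proteins, rose 2.14-fold (4.12 to 8.95 CPM, adjusted p = 3.16e-05), the Ikaros family gene *IKZF3* rose 1.28-fold and the trafficking regulator *KLF2* rose 1.39-fold. In the guide comparisons 0 of 26 passed by edgeR, with a median of -0.11 over both guides beside -0.004 for all tested genes. Only 0.0158% of all tested genes were called over both guides, so a count of 0 sets no list apart.

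Partners of the recombinase in cutting and end joining were called in both directions. Of 16 tested 2 rose and 3 fell with the inhibitor (median -0.09), where 22% of all tested genes rose and 18.7% fell (median 0.02). *HMGB1*, a DNA-bending cofactor of the RAG proteins, fell 1.36-fold (1110 to 811 CPM, edgeR adjusted p = 2.77e-05), *XRCC5*, which encodes Ku80, fell 1.35-fold (1020 to 758 CPM) and *PRKDC*, the DNA-dependent protein kinase gene, fell 1.29-fold (1080 to 835 CPM). *NHEJ1*, an end-joining factor, rose 1.36-fold (14 to 19.2 CPM). In NT the same 4 genes were below DMSO, at 709, 498, 452 and 6.77 CPM.

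Other surface molecules of thymocytes and T cells were mostly higher among those called, with 12 of 29 tested rising and 1 falling with the inhibitor (median 0.32). The shares over all tested genes were 22% rising and 18.7% falling (median 0.02). *CD1B*, a lipid antigen-presenting molecule of cortical thymocytes, rose 1.75-fold (42.1 to 73.7 CPM, edgeR adjusted p = 1.87e-07). The ectoenzyme gene *CD38* rose 1.81-fold (9 to 16.3 CPM) and *CD96* rose 1.53-fold (46.7 to 71.2 CPM). In NT these 3 stood at 73.5, 91.5 and 178 CPM. Against NT 0 of 29 passed over both guides by edgeR, where 0.0158% of all tested genes were called.

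Ligands and intracellular partners of the members were called in both directions, 8 of 26 higher and 7 lower with the inhibitor (median 0.14). The shares over all tested genes were 22% higher and 18.7% lower (median 0.02). *CD59*, a membrane regulator of complement, rose 1.37-fold (47.0 to 64.2 CPM, edgeR adjusted p = 5.3e-05), and *CD70*, the ligand of CD27, rose 2.66-fold from 0.735 to 1.96 CPM. *CD86*, a ligand of CD28, was called as higher but near the floor, at 0.0312 and 0.496 CPM. *CD2AP*, an adaptor that binds the tail of CD2, fell 1.53-fold (111 to 72.5 CPM). Over both guides 0 of 26 passed by edgeR, where 0.0158% of all tested genes were called. These 4 lists were chosen with earlier results of the data known, and in each the share called stands beside 40.7% for all tested genes.

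**Figure D4:**
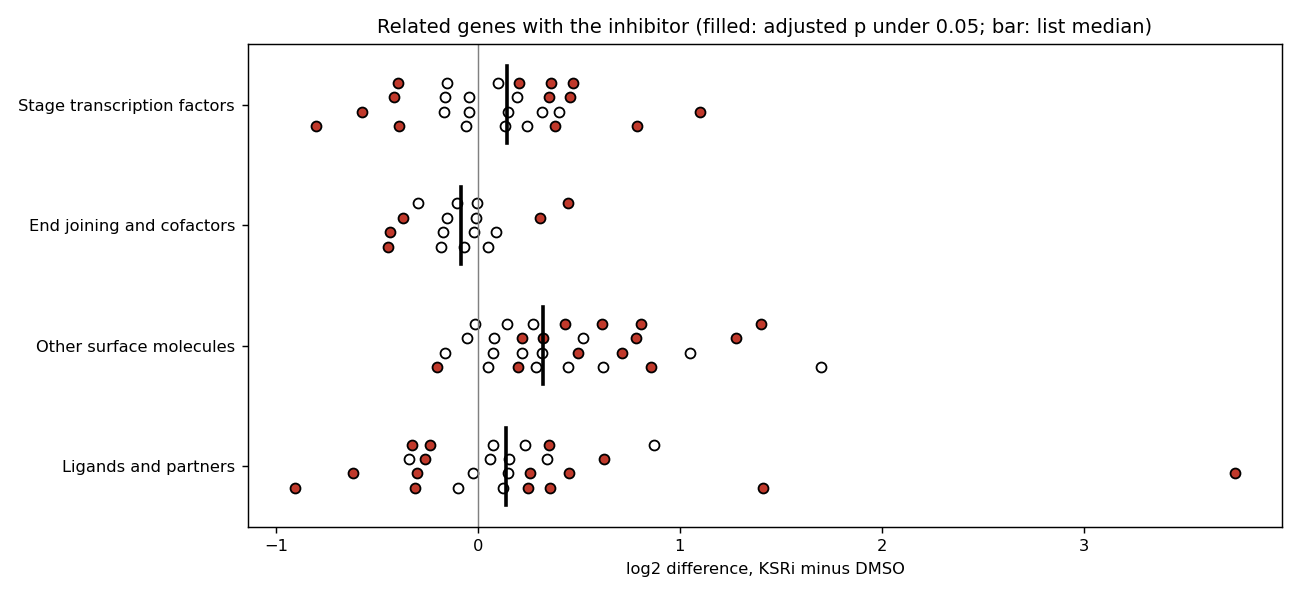
Log2 difference between KSRi and DMSO (horizontal axis) for each tested gene of the 4 related lists; filled points passed the edgeR test and bars are list medians. All 4 lists have filled points on both sides of 0, among other surface molecules 12 above and 1 below. *CD86* lies farthest right at 3.75.

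Among T-cell markers 3 of 10 rose with the inhibitor and 0 fell, near the 22% of all tested genes that were higher. They were *CD3E* (1.56-fold, edgeR adjusted p = 0.00834), *TRAC* (1.25-fold) and *TRBC1* (1.21-fold). *CD3E* was uneven among the KSRi libraries, at 521 ± 144 CPM (SD), against 334 ± 4.26 CPM in DMSO. Of markers of other cell types *BLK* rose from 18 to 27.3 CPM and *NKG7* from 1.61 to 4.98 CPM. The NK list summed to 3.85 to 4.46 CPM in DMSO and 6.65 to 8.33 CPM in KSRi, with *NCR1* at 0 in every group, and its part in the changes of the members was not tested.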

How the data were processed

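Per the labels, RNA of 14 Jurkat libraries was sequenced, and the authors deposited raw whole-number counts by Ensembl identifier. STAR 2.7.11b, DESeq2 1.42.1 and GRCh38 are named in the submitters' processing notes. The sources used here do not name the counting program, its strand setting or the annotation release, which affects overlapping genes.

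The counts were modelled in R 4.3.3 with edgeR 4.0.16. Genes were filtered by filterByExpr on the 5 groups, TMM factors were computed on the 18963 genes kept, and the 14 libraries were fitted together with a mean for each group. Each contrast was given a quasi-likelihood F test, adjusted by Benjamini-Hochberg over all tested genes, threshold 0.05. Standard errors are the log2 change divided by the root of F, and intervals are 95%. Positions and exons are from GENCODE 29, promoters from RefSeq. Symbols were found for 61369 of 61541 identifiers.

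The members and the lists were chosen with earlier results of these data known. All members are named. From each other list up to 4 called genes with the lowest adjusted p with the inhibitor are named, and for each member the 2 genes with the highest Pearson r of log2 (CPM + 0.1), among genes of at least 1 CPM. Some listed genes are not reported here.

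All replicates were kept, and they differed by more than sampling noise. The script was tested on simulated data for KSRi against DMSO (18368 genes), where it found 85% of changes of 1.5-fold and 98% of those of 2-fold and made 14 false calls. For both guides against NT (18353 genes) these were 79%, 100% and 10. Every gene and group was simulated with a common spread, with 100 genes changed 1.5-fold, 50 changed 2-fold and 50 changed 4-fold. Spreads and numbers of changed genes in the real data differ from this, so these shares are not the power of the comparisons above. The alternatives tried were scaling by RLE or upper quartile, no filter or 5 CPM in 3 libraries, DESeq2 1.42.0, limma-voom (limma 3.58.1), only the groups compared, a replicate block, each library left out and an adjusted p under 0.01.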

Additional observations from a re-analysis of the deposited data

Results flagged for a closer look

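The change with the inhibitor differed from the change with the guides for 2 of 10 members by the edgeR test of the difference. Of all tested genes 28.6% differed. Against NT the guides changed neither *RAG1* (edgeR adjusted p = 0.989 over both guides) nor *CD28* (0.99) by a called amount. For *RAG1* the inhibitor effect minus the guide effect was -0.67 on the log2 scale (SE 0.11, adjusted p = 0.000371), with 3 of 3 KSRi libraries below all DMSO libraries and 6 of 6 guide libraries below both NT libraries by a smaller margin. For *CD28* it was 0.55 (SE 0.10, adjusted p = 0.000776), with 3 of 3 KSRi libraries above all DMSO libraries and the guide libraries on both sides of NT. Groups did not overlap for 46.9% of all tested genes in KSRi against DMSO and for 9.56% in both guides against NT. The starting levels differed: *RAG1* was at 192 CPM in DMSO and 52.2 CPM in NT, and *CD28* at 129 and 177 CPM. The part of the starting level in these differences was not tested.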

How the results depend on the processing

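Over 1603 recomputed values, from 70 pairs of a member and a comparison, 1499 kept their direction and side of the threshold. Calls were lost in 17 and gained in 6, and 81 changed sign, all of them values that had not been called. *RAG1* and *CD28* kept their calls and directions in KSRi against DMSO and in the inhibitor effect minus the guide effect under every alternative run. The number of members called stayed at 2 to 4 with the inhibitor, at 0 for each guide comparison and at 7 to 9 in NT against DMSO. Calls over all genes moved with the setting too. KSRi against DMSO gave 7712 of 18963 in the main fit and 6082 of 11600 with the 5 CPM filter. At an adjusted p under 0.01 it gave 5204 of 18963. For NT against DMSO these were 12477 of 18963, 8341 of 11600 and 10406 of 18963. For the inhibitor effect minus the guide effect, leaving out 1 library gave 2 to 4 members, the highest without guide 2 replicate 3, when *CD2* (adjusted p = 0.0159) and *DNTT* (0.0416) were called as well. Without that library 5226 of 18859 tested genes were called. *RAG2* was called in the same contrast without KSRi replicate 1 (-0.468, adjusted p = 0.017), and *CD2* without a filter (0.0295). In NT against DMSO the call of *CD6* was lost without DMSO replicate 2 (adjusted p = 0.0616), without NT replicate 1 (0.122) and at an adjusted p under 0.01, where *CD27* was lost too. *CD27* was not tested under the filter of 5 CPM. Over all genes, both guides together gave 3 calls, 41 without a filter and 7 with DESeq2, guide 1 gave 1, 35 and 8, guide 2 gave 2, 35 and 5, and guide 2 against guide 1 gave 1, 13 and 2. The cause of each change was not tested.

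Same-numbered replicates did not pair, with correlations of their deviations from -0.0957 to 0.111, and 1 of 6 DMSO and KSRi libraries and 0 of 6 guide libraries were most like their own number. With the replicate block 2 members were called with the inhibitor (*CD2* had an adjusted p of 0.0736), 0 with the guides and 9 in NT against DMSO. Of all 18963 tested genes the block called 7217 with the inhibitor, 2 over both guides and 11958 in NT against DMSO. Signs that changed under the block were -0.0297 for *CD27* in guide 2 against NT, -0.00223 for *CD7* in both guides against NT, 0.000618 for *RAG2* in both guides against NT.

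Other values near 0 that changed sign were these log2 differences. With RLE factors they were -0.00159 for *CD7* in KSRi against DMSO, -0.00223 for *CD27* in guide 2 against NT and -0.01 for *CD7* in both guides against NT. With no filter they were -0.0089 for *CD7* in KSRi against DMSO and -0.0162 for *CD7* in the inhibitor effect minus the guide effect. With only the groups compared it was -0.00257 for *CD7* in KSRi against DMSO. With upper-quartile factors they were 0.00657 for *CD6* in guide 1 against NT, -5.75e-06 for *CD2* in guide 2 against guide 1, -0.000149 for *CD7* in the inhibitor effect minus the guide effect and 0.17 for *RAG2* in NT against DMSO. With the 5 CPM filter they were 0.00757 for *CD6* in guide 1 against NT, -0.00755 for *CD2* and -0.00266 for *CD28* in guide 2 against guide 1, -0.00918 for *CD7* in the inhibitor effect minus the guide effect and 0.0931 for *RAG2* in NT against DMSO. With DESeq2 they were -0.00724 for *CD27* in guide 2 against NT and -0.0128 for *CD7* in both guides against NT. With limma-voom they were -0.00162 for *CD27* in guide 2 against NT, -0.00793 for *CD2* in guide 2 against guide 1 and -0.0223 for *CD7* in the inhibitor effect minus the guide effect. Ranges over the left-out libraries that crossed 0 follow by comparison. In KSRi against DMSO they were -0.0875 to 0.0327 for *CD6*, -0.0587 to 0.128. for *CD7* In guide 1 against NT they were -0.211 to 0.00106 for *CD5*, -0.0543 to 0.0385 for *CD6*, -0.178 to 0.304. for *CD7* In guide 2 against NT they were -0.262 to 0.0254 for *CD2*, -0.141 to 0.0143 for *CD5*, -0.0883 to 0.00328 for *CD6*, -0.265 to 0.218 for *CD7*, -0.119 to 0.082 for *CD27*, -0.0281 to 0.131 for *CD28*, -0.118 to 0.042. for *DNTT* In both guides against NT they were -0.0706 to 0.0208 for *CD6*, -0.222 to 0.261 for *CD7*, -0.0657 to 0.0204. for *RAG2* In guide 2 against guide 1 they were -0.176 to 0.0988 for *CD2*, -0.0455 to 0.167 for *CD5*, -0.0818 to 0.011 for *CD6*, -0.16 to 0.00726 for *CD7*, -0.0588 to 0.087. for *CD28* In the inhibitor effect minus the guide effect they were -0.0281 to 0.173 for *CD4*, -0.0619 to 0.0578 for *CD6*, -0.247 to 0.236 for *CD7*, -0.4 to 0.0799. for *CD27*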

Other observations

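The ratio of *DNTT* to *RAG1* CPM within a library does not depend on the scaling of the libraries and was looked at after the values were seen. It was 0.189, 0.191 and 0.193 in DMSO and 0.378, 0.398 and 0.458 in KSRi. In NT it was 3.06 and 3.12, and in the 6 guide libraries it lay between 2.84 and 3.78. DMSO, KSRi and the guide-bearing libraries thus formed separate ranges of this ratio, which compares counts and not levels per length.

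Spread within groups also differed between members. In KSRi the highest library was 1.70 times the lowest for *RAG2* and 1.66 times for *CD27*, but 1.05 times for *DNTT* and 1.07 times for *CD28*. In DMSO these ratios were 1.17, 1.36, 1.05 and 1.07.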
